A study of Mus musculus with 16 samples.

Results

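Of 11371 H3K27me3 peaks called in wild type NPC (neural precursor cells), 4153 peaks, or 36.5%, overlapped no H3K27me3 peak of wild type ES (embryonic stem cells) and none of PCGF5-depleted NPC. These are called the gained peaks below. They were chosen from the H3K27me3 calls themselves, so their absence from the ES list and from the list of depleted NPC is the way they were selected and not a result. The other peaks of wild type NPC comprised 3530 peaks gained in both NPC lists, 3120 peaks kept from ES in both NPC lists, and 568 peaks shared with ES but not with depleted NPC.

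The lists came from ChIP-seq of mouse 46C ES, a line with a GFP reporter at the neural gene Sox1, and of the neural cells made from it, with 16 libraries in 16 groups. Peak lists of 10 libraries were used, namely H3K27me3 and H2AK119ub1 in wild type and PCGF5-depleted ES and NPC, and Flag-PCGF5 in ES and NPC. ES of both genotypes grew on inactivated fibroblast feeders with LIF and the 2i inhibitors, and NPC were collected at day 6 of differentiation in suspension. The depleted cells have the genotype shPCGF5 in the labels and, in the methods of the study, are clones picked after infection with a hairpin lentivirus, whereas the Flag libraries, labelled wild type, came from ES with a 3×Flag tag knocked into Pcgf5 and from NPC made from them. How many clones stand behind a library was not given in the sources used here, and feeder chromatin in the ES lists was not tested. Each group held 1 library, so no difference between cells could be tested. A share of peaks is given with its 95% Wilson interval, which covers counting error only, and neighbouring peaks are not independent of each other. The files gave no read totals, so that depth is unknown.

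Polycomb repressive complex 2 (PRC2) trimethylates histone H3, giving H3K27me3, and Polycomb repressive complex 1 (PRC1) monoubiquitinates histone H2A, giving H2AK119ub1. PCGF5 is a subunit of a variant PRC1. In ES both marks lie mainly over CpG-rich promoters of developmental regulators, and as ES leave pluripotency, H3K27me3 is known to appear at genes that are no longer used.

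Stretches of gained peaks were read from the NCBIM37 (mm9) genome on the + strand, with each CpG in capitals, to show the kinds of sequence that the gained peaks covered. Smagp (chr15:100466689-100466988, intron) and Plxdc1 (chr11:97847331-97847630, in part coding) belonged to the promoter peaks of highest fold. Nodal (chr10:60881430-60881729, intron), Lefty1 (chr1:182865527-182865826, intron) and Tdgf1 (chr9:110849292-110849591, upstream) belong to the Nodal pathway. Utf1 (chr7:147130033-147130332, in part coding), Tet2 (chr3:133207595-133207894, upstream) and Cdh1 (chr8:109127395-109127694, in part coding) are genes active in ES. Pcgf5 (chr19:36485469-36485768, intron) is the depleted gene.
Smagp: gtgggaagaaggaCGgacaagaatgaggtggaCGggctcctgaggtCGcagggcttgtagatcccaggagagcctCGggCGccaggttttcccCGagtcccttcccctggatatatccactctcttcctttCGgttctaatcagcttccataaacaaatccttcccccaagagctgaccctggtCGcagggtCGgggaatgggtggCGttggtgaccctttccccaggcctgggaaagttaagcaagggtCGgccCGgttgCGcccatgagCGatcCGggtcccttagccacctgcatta
Plxdc1: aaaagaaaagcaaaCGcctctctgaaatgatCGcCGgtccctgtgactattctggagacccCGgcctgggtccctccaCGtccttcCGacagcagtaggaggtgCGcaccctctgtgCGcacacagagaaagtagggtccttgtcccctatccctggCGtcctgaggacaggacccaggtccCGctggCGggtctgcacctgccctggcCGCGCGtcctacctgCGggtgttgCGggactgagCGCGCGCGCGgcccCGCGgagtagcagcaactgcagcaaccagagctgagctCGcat
Nodal: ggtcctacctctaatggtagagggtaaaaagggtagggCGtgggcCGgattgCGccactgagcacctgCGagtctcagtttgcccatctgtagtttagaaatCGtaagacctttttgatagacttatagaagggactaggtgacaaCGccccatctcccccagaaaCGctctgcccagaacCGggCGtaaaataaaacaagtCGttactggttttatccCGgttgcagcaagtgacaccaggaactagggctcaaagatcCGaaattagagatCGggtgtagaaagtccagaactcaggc
Lefty1: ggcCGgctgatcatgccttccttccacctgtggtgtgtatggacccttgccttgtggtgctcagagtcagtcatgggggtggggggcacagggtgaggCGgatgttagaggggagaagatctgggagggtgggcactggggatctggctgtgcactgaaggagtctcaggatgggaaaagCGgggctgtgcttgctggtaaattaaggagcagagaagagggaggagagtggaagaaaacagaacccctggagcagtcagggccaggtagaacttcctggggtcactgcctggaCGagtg
Tdgf1: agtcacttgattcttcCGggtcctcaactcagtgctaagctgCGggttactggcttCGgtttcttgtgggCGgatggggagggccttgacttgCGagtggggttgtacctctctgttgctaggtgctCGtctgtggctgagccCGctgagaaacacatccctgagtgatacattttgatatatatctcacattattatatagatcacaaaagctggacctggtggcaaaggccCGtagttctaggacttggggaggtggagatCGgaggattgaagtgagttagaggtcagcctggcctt
Utf1: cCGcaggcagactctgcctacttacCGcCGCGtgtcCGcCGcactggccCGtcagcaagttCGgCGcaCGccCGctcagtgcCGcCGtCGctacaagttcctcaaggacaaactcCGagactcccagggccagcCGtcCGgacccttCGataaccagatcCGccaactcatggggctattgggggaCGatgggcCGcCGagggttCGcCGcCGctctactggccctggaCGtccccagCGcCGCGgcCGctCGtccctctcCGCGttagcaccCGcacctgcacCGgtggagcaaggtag
Tet2: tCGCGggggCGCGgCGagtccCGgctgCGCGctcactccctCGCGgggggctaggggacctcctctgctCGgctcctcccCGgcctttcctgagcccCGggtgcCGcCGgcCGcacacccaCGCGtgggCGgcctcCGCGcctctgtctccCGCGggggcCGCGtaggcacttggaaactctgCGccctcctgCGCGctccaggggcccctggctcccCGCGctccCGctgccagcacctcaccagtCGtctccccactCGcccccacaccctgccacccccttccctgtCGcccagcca
Cdh1: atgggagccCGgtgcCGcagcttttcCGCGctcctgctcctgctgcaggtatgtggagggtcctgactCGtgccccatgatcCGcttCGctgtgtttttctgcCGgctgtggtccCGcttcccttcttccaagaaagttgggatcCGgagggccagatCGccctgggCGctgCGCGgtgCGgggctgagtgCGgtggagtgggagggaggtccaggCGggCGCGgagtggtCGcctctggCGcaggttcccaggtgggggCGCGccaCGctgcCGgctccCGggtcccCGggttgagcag
Pcgf5: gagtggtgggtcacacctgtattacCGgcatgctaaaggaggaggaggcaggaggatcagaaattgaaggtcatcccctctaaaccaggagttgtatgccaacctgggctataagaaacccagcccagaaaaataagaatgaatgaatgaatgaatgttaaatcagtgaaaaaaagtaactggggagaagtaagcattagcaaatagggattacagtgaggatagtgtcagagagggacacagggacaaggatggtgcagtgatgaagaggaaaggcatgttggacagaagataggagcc
The Utf1 stretch held 35 CpGs, the Tet2 stretch 34 and the Cdh1 stretch 27 in 300 bases, whereas the Pcgf5 stretch held 1.

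Genes of pluripotency had the highest share with gained peaks among 14 gene lists. Of 30 pluripotency genes, 14 had a gained peak within 2500 bp of a start site, beside 7.34% of all 22232 protein-coding genes, and 9 of them had a gained peak and no H3K27me3 peak of ES or depleted NPC there, beside 2.87% of all genes. The 9 genes were Klf5, Tcfcp2l1, Zfp42, Fgf4, Tdgf1, Tet2, Utf1, Nr5a2 and Otx2. The others with a gained peak, Klf4, Esrrb, Tbx3, Prdm14 and Fgf5, also had H3K27me3 of depleted NPC there. Pou5f1, Nanog and Sox2 were among the listed genes with no gained peak. Any H3K27me3 peak lay at the start sites of 3 pluripotency genes in wild type ES, of 16 in wild type NPC and of 7 in depleted NPC, out of 30, beside 13.5%, 15.9% and 15.6% of all genes, and these lists are the ones that chose the gained peaks. Peak lists carry no expression, so the cell labels could not be checked against transcripts.

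Otx2, a homeodomain factor of the anterior epiblast and brain (chr14:49277354-49287319), was covered the most. Within 10 kb of its start site wild type NPC had 11 H3K27me3 peaks over 10011 bp, of which 10 peaks over 7095 bp were gained peaks. The widest, chr14:49284313-49287379 with 3067 bp, spanned the start site at a fold of 2.80 over the background of its library. Wild type NPC also had 14 H2AK119ub1 peaks over 5076 bp there, and depleted NPC had no peak of either mark. Wild type ES had 1 H3K27me3 peak of 342 bp there, upstream of the start site, and neither Flag-PCGF5 list had a peak.

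Utf1, a chromatin factor of undifferentiated ES (chr7:147129688-147131011), had 3 gained peaks within 10 kb of its start site and no peak of any other list. The largest, chr7:147129489-147130876, spanned the start site over 1388 bp at a fold of 7.44. Fgf4, the FGF ligand made by ES (chr7:152047291-152051148), had 4 gained peaks, the largest of 2438 bp at a fold of 6.69, together with 2 H2AK119ub1 peaks in wild type NPC and 1 in wild type ES. At Tet2, a 5-methylcytosine dioxygenase, 2 gained peaks each had a fold of 5.72, the nearer centred 391 bp from the start site. Klf5, a Krüppel-like factor of ES, had 2 gained peaks with folds of 6.70 and 4.77, and Zfp42, an ES marker also known as Rex1, had 1 of 253 bp with a fold of 6.99. The Zfp42 peak lay 484622 bp from the nearest ES H3K27me3 peak. Nr5a2, an orphan nuclear receptor, had 5 gained peaks and 3 H2AK119ub1 peaks in wild type NPC, with a depleted NPC H3K27me3 peak 2425 bp from the nearest gained peak. Among these 9 genes, 2 (Klf5 and Tet2) had an NPC Flag-PCGF5 peak within 2500 bp of a start site and 3 (Fgf4, Nr5a2 and Otx2) an H2AK119ub1 peak of wild type NPC, and none had one of depleted NPC, beside 14.1%, 5.04% and 4.22% of all genes.

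**Figure D1:**
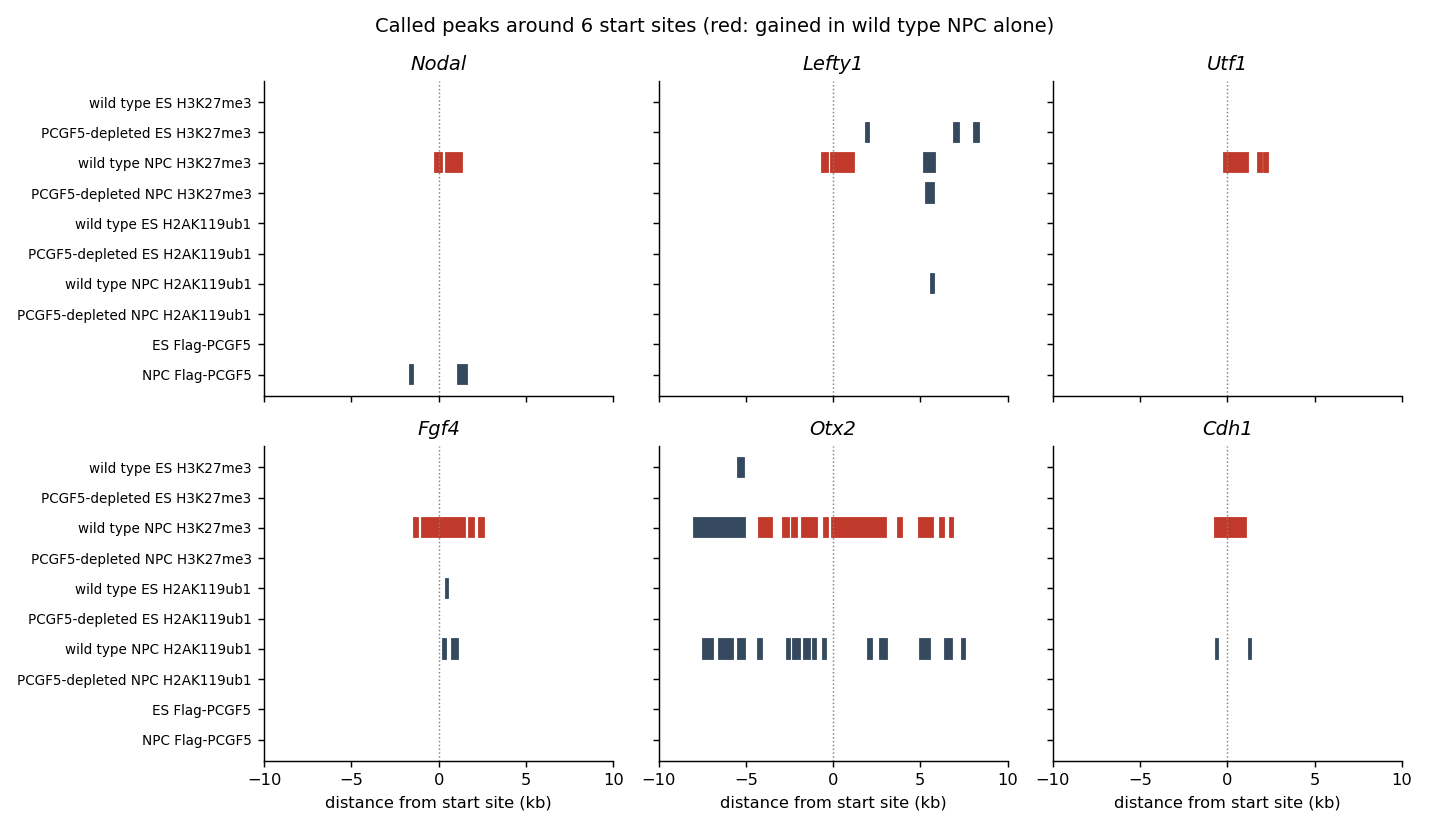
Called peaks in each of the 10 lists (rows) against distance from the start site in kb, in the direction of the gene, at Nodal, Lefty1, Utf1, Fgf4, Otx2 and Cdh1. Red boxes are gained peaks and dark boxes all other peaks. At Otx2, 10 gained peaks and 14 H2AK119ub1 peaks of wild type NPC stand where depleted NPC have no peak, and at Utf1 only the 3 gained peaks are present.

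In the Nodal, activin and TGF-β pathway, 7 of 31 genes (22.6%) had a gained peak at a start site, beside 7.34% of all genes. Of the 7, 4 (Nodal, Lefty1, Lefty2 and Tdgf1) had no H3K27me3 peak of ES or depleted NPC there. These were 12.9% of the list, beside 2.87% of all genes. Nodal is the ligand, Tdgf1 (Cripto) its co-receptor, and Lefty1 and Lefty2 secreted inhibitors of Nodal. At Nodal (chr10:60880720-60888086) gained peaks lay at chr10:60880480-60880927, over the start site with a fold of 4.28, and at chr10:60881115-60882045 with a fold of 7.13. The second was overlapped by an NPC Flag-PCGF5 peak with a fold of 2.30, and another Flag-PCGF5 peak lay upstream of the start site. No list of wild type or depleted cells had an H2AK119ub1 peak within 10 kb of the Nodal start site. Lefty1 had gained peaks with folds of 4.70 and 4.71, the second over 1300 bp, and a depleted ES H3K27me3 peak of 201 bp. Lefty2 had 1 gained peak with a fold of 6.55. Downstream of the Lefty1 start site a peak of wild type NPC was shared with depleted NPC, and the depleted NPC peak lay 4153 bp from the nearer gained peak. Inhba and Tgfbr1 also had gained peaks, but next to H3K27me3 peaks of depleted NPC. Over the whole pathway 12 genes had an H3K27me3 peak at a start site in wild type NPC and 12 in depleted NPC, beside 15.9% and 15.6% of all genes.

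Gained peaks also lay at genes of cell adhesion and of other lineages. Cdh1, which encodes E-cadherin of ES and epithelia (chr8:109127251-109194146), had a gained peak of 1782 bp across its start site with a fold of 6.93, and 2 H2AK119ub1 peaks in wild type NPC. The tight junction gene Cldn6 had gained peaks with folds of 7.57 and 3.69. These were 2 of 32 adhesion and matrix genes (6.25%) with a gained peak and no H3K27me3 peak of ES or depleted NPC, beside 2.87% of all genes. Such genes were 3 of 19 neural crest and trophoblast genes (Erbb3, Krt8 and Krt18, 15.8%) and 2 of 21 germline genes (Smc1b and Prdm1, 9.52%). They were 2 of 40 neural regulators (Pou3f4 and Zic2, 5%). Near the share of all genes were Polycomb genes with 1 of 29 (Phf19, 3.45%), Wnt genes with 1 of 32 (Sfrp4, 3.1%) and FGF genes with 1 of 30 (Fgf4, already counted, 3.33%). At Zic2 a depleted NPC peak lay 56 bp from the gained peak, just outside the window.

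In 5 lists every gained peak shared its promoter with an H3K27me3 peak of ES or depleted NPC. This held for 8 of 28 BMP genes, 10 of 29 mesoderm genes, 6 of 22 endoderm genes, 9 of 39 Hox genes and 3 of 21 blood, endothelium and muscle genes. Hox genes, which pattern the body axis, had H3K27me3 at all 39 promoters in both NPC lists, and a gained peak there was a small piece, such as 178 bp at Hoxa9 within 9158 bp of wild type NPC H3K27me3. In each of the 14 lists the share of genes with a gained peak, with or without other H3K27me3, was above the 7.34% of all genes, from 13.8% of Polycomb genes to 46.7% of pluripotency genes. The lists overlap in part (Tdgf1 and Fgf4 are in more than 1).

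**Figure D2:**
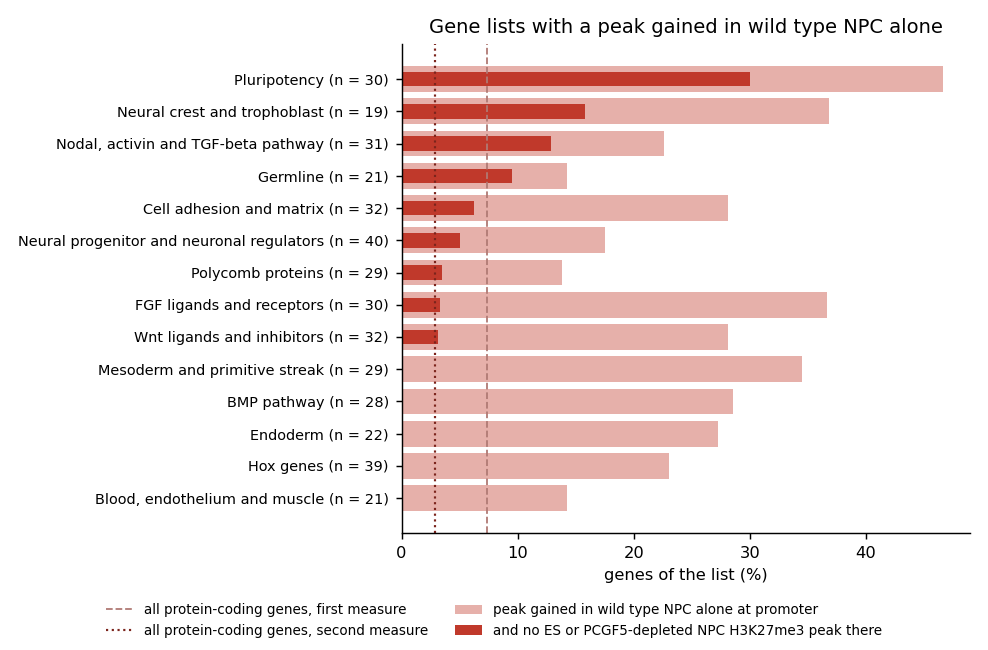
Share of the genes of each list (percent, with the number of genes matched) that had a gained peak within 2500 bp of a start site (light bars) and that had one with no H3K27me3 peak of ES or depleted NPC there (dark bars). The dashed and dotted lines mark the same shares over all protein-coding genes, 7.34% and 2.87%. Pluripotency stands highest in both, with 46.7% and 30.0%.

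Over all genes, 1632 had a gained peak at a start site. Of these, 639 had no H3K27me3 peak of ES or depleted NPC there, 342 had one of depleted NPC only, 106 one of ES only and 545 both. The 12 gained promoter peaks of highest fold belonged to Pgk1, Smagp, Gse1, Ica1l, Nfib, Plxdc1, Cbr3, C77370, Fzd5, St8sia1, C2cd4b and Dock10, and 10 of these 12 genes had no H3K27me3 peak of ES or depleted NPC at a start site. Smagp, which encodes a small membrane protein of cell adhesion, had a peak of 2200 bp with a fold of 12.5, Nfib, a nuclear factor I gene, 1 of 1439 bp with a fold of 10.5, and Fzd5, a Wnt receptor gene, 1 of 1738 bp with a fold of 9.17. Pgk1, which encodes phosphoglycerate kinase, had a peak of 516 bp at chrX:103382050-103382565 with a fold of 13.7, overlapped by Flag-PCGF5 with a fold of 2.84. In the study, cassettes driven by a human PGK promoter served for a nuclease-made knockout of Pcgf5. The depleted cells here carry a hairpin from a lentiviral vector with puromycin selection, whose promoters the study does not describe. The Pgk1 peak was called in wild type NPC, and whether vector sequence took part in it was not tested. Of the 12 promoters, 4 (Smagp, Gse1, Nfib and Dock10) had an H2AK119ub1 peak in wild type NPC and 0 in depleted NPC, and 4 (Pgk1, Nfib, St8sia1 and C2cd4b) an NPC Flag-PCGF5 peak, beside 5.04%, 4.22% and 14.1% of all genes.

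By extent, 12 genes had the most gained bp among genes with no wild type ES or depleted NPC H3K27me3 peak at the promoter. They were Otx2, Ltbp4, Fgf4, Adrb3, Unc5b, Nr5a2, Icam1, Hspb1, Mt2, Msc, Gm9947 and Smagp, with 2546 to 6013 bp. Depleted ES had an H3K27me3 peak at 2 of the 12 promoters, Unc5b and Hspb1. Msc and Gm9947 share the same peaks. They included genes of secreted, membrane and stress proteins, namely Ltbp4, which binds latent TGF-β, Unc5b, a netrin receptor, Icam1, an adhesion molecule, Hspb1, a small heat shock protein, and Mt2, a metallothionein. Of these 12 promoters, 7 had an H2AK119ub1 peak in wild type NPC, 0 in depleted NPC, and 2 (Ltbp4 and Hspb1) an NPC Flag-PCGF5 peak, and the shares of all genes were again 5.04%, 4.22% and 14.1%.

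Genes of the Polycomb complexes included Pcgf5 itself. Pcgf5 (chr19:36453557-36530682) had gained peaks at chr19:36483352-36483564 and chr19:36485366-36485872, with folds of 4.77 and 6.23, near an internal start site. Wild type ES had 2 H3K27me3 peaks there, the nearer 576 bp from a gained peak, and depleted NPC had none. Phf19, a PRC2-associated protein gene, had gained peaks with folds of 5.66 and 4.11 and 3 H3K27me3 peaks in depleted ES. Kdm2b, which encodes a CpG-binding partner of another variant PRC1, and Phc2, of canonical PRC1, each had 1 gained peak. Neither had gained peaks alone. Wild type ES had an H3K27me3 peak of 700 bp at a Kdm2b start site, and depleted NPC had 3 H3K27me3 peaks at Phc2.

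The gained peaks were narrow and of low fold compared with the rest of the list, as values of the lists from which they were chosen. Their median width was 303 bp (quartiles 235 to 431 bp), against 491.5 bp for peaks gained in both NPC and 1276 bp for kept peaks. Median folds were 4.28, 4.77 and 5.66. They covered 1.65 Mb, or 17.1% of the bp of the list. Only 170 exceeded 1000 bp, and of those 170 peaks 124 (72.9%) lay at promoters and 95 lay more than 10 kb from any H3K27me3 peak of ES or depleted NPC.

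The widest gained peaks lay at Otx2, at Ltbp4 (chr7:28114566-28117735, 3170 bp) and in intergenic sequence at chr6:30121729-30127751 (6023 bp, fold 7.10). The last lay 1992 bp from Mir183 and 2178 bp from Mir96, genes of a microRNA cluster of sensory organs, and was overlapped by H2AK119ub1 of wild type NPC with a fold of 7.51. A depleted NPC H3K27me3 peak lay 660 bp away.

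The rule turned on as little as 1 bp. A gained peak near En1, chr1:122508826-122509457, lay 1 bp from a wild type ES peak, and 452 gained peaks had a peak of ES or depleted NPC within 200 bp. Conversely, a peak near Sim1, chr10:50610062-50610366, was left out for 1 bp shared with depleted NPC, and 321 peaks were left out for fewer than 100 bp.

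Distance to ES H3K27me3 split the gained peaks. The median distance to the nearest wild type ES peak was 26480 bp (quartiles 1888 to 166532 bp, with 8 peaks of the mitochondrial genome where ES had none), against 2807.5 bp for peaks gained in both NPC, which the rule also sets apart from ES peaks. Within 1 kb of an ES peak lay 689 gained peaks, and 1369 (33.0%) lay over 100 kb away, against 655 (18.6%) of those gained in both NPC. Depleted NPC peaks were closer, at a median of 5037 bp, with 1422 gained peaks within 1 kb. By the nearer of an ES and a depleted NPC peak, 1642 gained peaks (39.5%) lay within 1 kb, 805 (19.4%) at 1 to 10 kb and 1706 (41.1%) over 10 kb away. Of all gained peaks 1370 (33.0%) had a wild type NPC peak of another class within 1 kb, and 1388 (33.4%) had no other wild type NPC H3K27me3 peak within 10 kb.

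**Figure D3:**
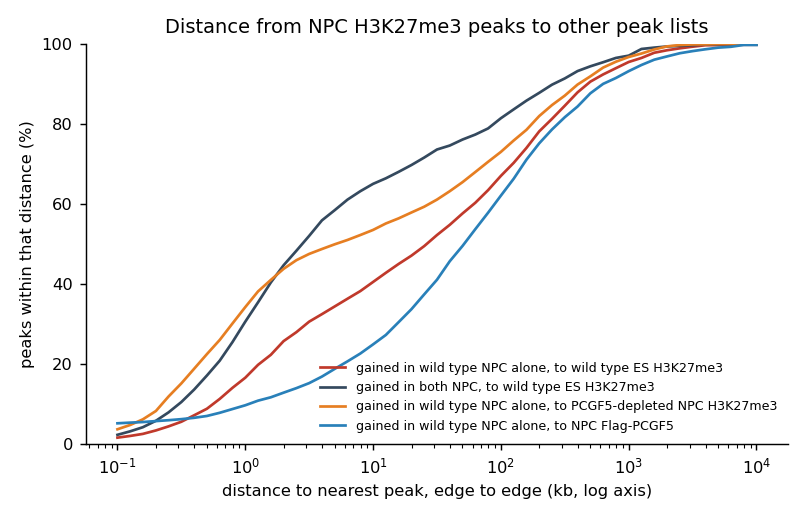
Cumulative share of peaks (percent) against distance to the nearest peak of another list, edge to edge, on a log axis in kb. Gained peaks are drawn against wild type ES H3K27me3 (red), depleted NPC H3K27me3 (orange) and NPC Flag-PCGF5 (blue), and peaks gained in both NPC against wild type ES H3K27me3 (dark). The median of the red curve is 26480 bp and that of the dark curve 2807.5 bp.

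Promoters, taken as 2500 bp either side of a protein-coding start site, held the centres of 1998 gained peaks, or 48.1% (46.6 to 49.6), beside 54.9% of the whole list. Introns held 577 (13.9%), exons 113 (2.72%) and intergenic sequence 1465 (35.3%). The promoter share was 56.4% (54.0 to 58.8) within 1 kb of ES or depleted NPC H3K27me3, 37.9% (34.6 to 41.3) at 1 to 10 kb and 44.96% (42.6 to 47.3) beyond 10 kb. Without sequence of low complexity, described next, the 3 shares were 56.6% (54.2 to 59.0), 40.0% (36.6 to 43.6) and 59.7% (56.9 to 62.4). The intervals of the nearest and the farthest group then overlapped.

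Base composition differed with place. The ratio of observed to expected CpG in the 500 bp around the centre had a median of 0.286 in gained peaks, 0.332 in peaks gained in both NPC and 0.604 in kept peaks. At the 639 promoters with gained peaks alone it was 0.493 over 838 gained peaks, and away from promoters it was 0.198 over 2111. Of 4152 gained peaks with known sequence, 571, or 13.8% (12.7 to 14.8), held fewer than 150 different 4-base words in those 500 bp, as simple repeats do, against 7.03% (6.23 to 7.92) of peaks gained in both NPC and 7.73% (6.84 to 8.72) of kept peaks. In 298 of the 571 the commonest word was an alternation of T and G, or of C and A on the other strand. This share was 1.34% (0.886 to 2.02) within 1 kb of ES or depleted NPC H3K27me3 and 28.2% (26.1 to 30.4) beyond 10 kb, and 2.75% (2.12 to 3.57) at promoters.

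The gained peak of highest fold was of this kind. It lay in an intron of Adarb2, an RNA editing enzyme gene, at chr13:8450453-8450779, with a fold of 14.3 and 82 different words. H2AK119ub1 of wild type NPC overlapped it with a fold of 9.60. Of the 10 gained peaks of highest fold, with folds from 9.92 to 14.3, 2 had fewer than 150 words and 6 lay at promoters.

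H2AK119ub1 of wild type NPC overlapped 459 gained peaks, or 11.1% (10.1 to 12.04), beside 25.5% of the whole list. The share was 33.2% (31.7 to 34.8) in peaks gained in both NPC and 39.6% (37.8 to 41.3) in kept peaks. It was lower, at 5.99% (4.31 to 8.25), in the 568 peaks shared with ES but not with depleted NPC. Among peaks at most 324 bp wide, the narrowest part of the list, it was 9.20% (8.10 to 10.4) of gained peaks and 18.5% (16.1 to 21.0) of those gained in both NPC. Above 735 bp it was 20.2% (16.4 to 24.6) and 52.4% (49.5 to 55.3). Gained peaks away from promoters had the mark more often, in 16.3% of intergenic and 15.4% of intronic peaks against 6.06% at promoters. The order was the same in the other classes. Peaks gained in both NPC had 45.4% and 39.5% against 23.9%, and kept peaks 48.6% and 48.2% against 36.1%.

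In depleted NPC, H2AK119ub1 overlapped 144 gained peaks, or 3.47% (2.95 to 4.07), beside 15.6% of the whole list. The rule did not use this mark, but it took out all peaks with H3K27me3 in depleted NPC. Those had H2AK119ub1 of depleted NPC more often, at 12.7% of peaks gained in both NPC and 37.3% of kept peaks. The share is thus not independent of the selection. Peaks shared with ES but not with depleted NPC had 2.11% (1.21 to 3.66). When the wild type list was cut to its 3845 top-scoring peaks, the length of the depleted list, it overlapped 7.06% (6.32 to 7.87) of gained peaks, against 3.47%. In the same comparison, peaks gained in both NPC had 24.96% (23.6 to 26.4) and 12.7% (11.6 to 13.8), and kept peaks 32.3% (30.7 to 34.0) and 37.3% (35.7 to 39.1), so the lower share in depleted NPC was not particular to the gained peaks. Wild type H2AK119ub1 alone overlapped 443 gained peaks, depleted alone 128, and both 16, or 0.385% (0.237 to 0.625), beside 9.45% of the whole list, 7.71% of peaks gained in both NPC and 25.2% of kept peaks.

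The gap between the genotypes varied with the distance to other H3K27me3, and was widest at 1 to 10 kb. These shares used the full H2AK119ub1 lists, of 5754 peaks in wild type and 3845 in depleted NPC. They were not repeated at equal length or for other classes. Within 1 kb of an ES or depleted NPC H3K27me3 peak, 10.96% (9.54 to 12.6) of gained peaks had wild type H2AK119ub1 and 0.792% (0.463 to 1.35) had depleted H2AK119ub1. At 1 to 10 kb the shares were 16.9% (14.5 to 19.6) and 1.12% (0.589 to 2.11), and beyond 10 kb 8.38% (7.16 to 9.79) and 7.15% (6.02 to 8.47). Of the 128 gained peaks with depleted H2AK119ub1 alone, 116 lay beyond 10 kb and 76 of 127 with known sequence, or 59.8% (51.1 to 68.0), had fewer than 150 words, against 22.8% (19.1 to 26.9) of those with the wild type mark alone. Without such sequence the shares beyond 10 kb were 4.90% (3.83 to 6.26) and 3.43% (2.55 to 4.61), and over all gained peaks 9.83% (8.90 to 10.8) and 1.70% (1.33 to 2.18).

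**Figure D4:**
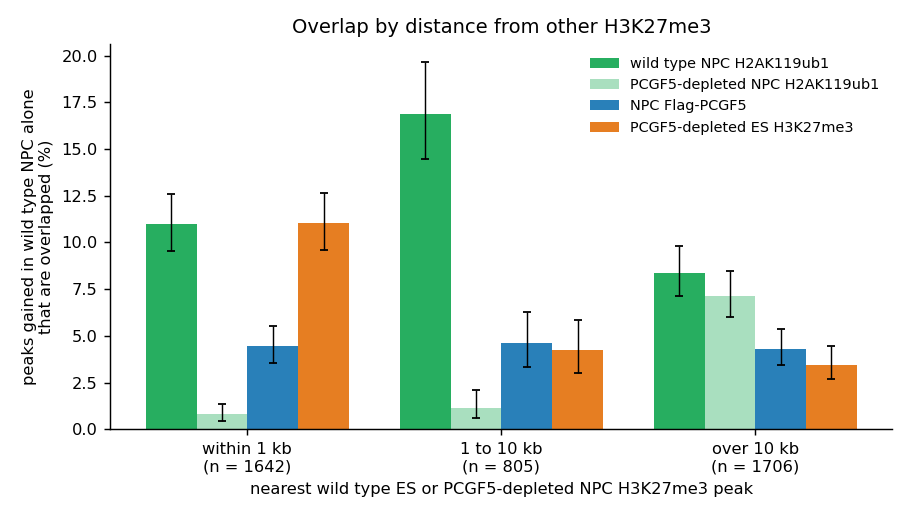
Share of gained peaks (percent, bars with 95% Wilson intervals) overlapped by H2AK119ub1 of wild type and depleted NPC, NPC Flag-PCGF5 and depleted ES H3K27me3, by distance from the nearest wild type ES or depleted NPC H3K27me3 peak. With the full lists, which differ in length, wild type and depleted H2AK119ub1 are far apart within 10 kb. They are close beyond it, at 8.38% and 7.15%, and Flag-PCGF5 is level at 4.28% to 4.60%.

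By score, 6 gained peaks stood highest for wild type H2AK119ub1. They were nearest to Dock2, Adarb2, Ddc, Kif2b, Gm53 and Fezf1, and 4 of them (Dock2, Ddc, Kif2b and Gm53) lay on chromosome 11. Dock2, Adarb2 and Ddc were intronic with 82 to 124 different words. The peak near Fezf1, a forebrain transcription factor gene, at chr6:23194306-23195029, had 205 words, an H2AK119ub1 fold of 9.05 and an ES H3K27me3 peak 637 bp away.

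Flag-PCGF5 of NPC overlapped 183 gained peaks, or 4.41% (3.82 to 5.07), beside 7.24% of the whole list, and lay within 1 kb of 403, or 9.70% (8.84 to 10.6). The share was 6.06% (5.32 to 6.90) in peaks gained in both NPC and 11.9% (10.8 to 13.1) in kept peaks. At like widths it was closer. Among peaks at most 324 bp wide it was 3.75% (3.05 to 4.59) of gained peaks and 3.51% (2.52 to 4.86) of those gained in both NPC, and above 735 bp 8.20% (5.80 to 11.5) and 8.81% (7.28 to 10.6). The Flag libraries were prepared with another fixation and fragmentation than the histone libraries, and the ES Flag-PCGF5 list, with 653 peaks against 12013 in NPC, overlapped 14 gained peaks, or 0.337% (0.201 to 0.565), beside 0.466%.

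Of the 183 gained peaks with Flag-PCGF5, 129 (70.5%) lay at promoters, beside 48.1% of all gained peaks. Flag-PCGF5 overlapped 6.46% (5.46 to 7.62) of promoter gained peaks and 8.85% (4.88 to 15.5) of exonic ones. For intronic and intergenic ones it was 2.95% and 1.84%. A higher share at promoters than in intergenic peaks was not particular to gained peaks. Peaks gained in both NPC had 6.91% against 5.37%, and kept peaks 13.3% against 6.96%. The median CpG ratio of the 183 was 0.493 against 0.280 for gained peaks without Flag-PCGF5. Flag-PCGF5 and H2AK119ub1 of wild type NPC overlapped the same gained peak in 4 cases, or 0.0963% (0.0375 to 0.247), beside 2.13% of the whole list, 1.64% of peaks gained in both NPC and 5.71% of kept peaks. Of the 639 genes with gained peaks alone, 143, or 22.4% (19.3 to 25.8), had an NPC Flag-PCGF5 peak within 2500 bp of a start site, beside 14.1% of all genes, 21.0% (18.2 to 24.1) of genes marked in both NPC but not ES, and 23.6% (21.8 to 25.6) of genes marked in ES and both NPC. H2AK119ub1 of wild type NPC lay at 47 of the 639, or 7.36% (5.58 to 9.64), beside 5.04% of all genes.

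The 8 overlapped gained peaks of highest Flag-PCGF5 score lay at or near Vstm2a, Gas2l1, Tns3, Arhgap8 (2 peaks under 1 Flag-PCGF5 peak), Sp6, Osbp2 and Hsd11b2. The Vstm2a promoter peak, chr11:16157536-16157937, had a Flag-PCGF5 fold of 21.5, the Gas2l1 intron peak 16.4 and the Tns3 intron peak 9.78, and these 3 genes, Sp6 and Osbp2 are on chromosome 11. Windows of 5 Mb with at least 5 Flag-PCGF5 peaks of fold 8 or more held 6 of the 183. The median Flag-PCGF5 fold at gained peaks was 2.22, as over its whole list. Nodal, Klf5, Tet2, Nfib, St8sia1, C2cd4b, Hspb1 and Ltbp4 were among the named genes with gained peaks alone and a Flag-PCGF5 peak.

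**Figure D5:**
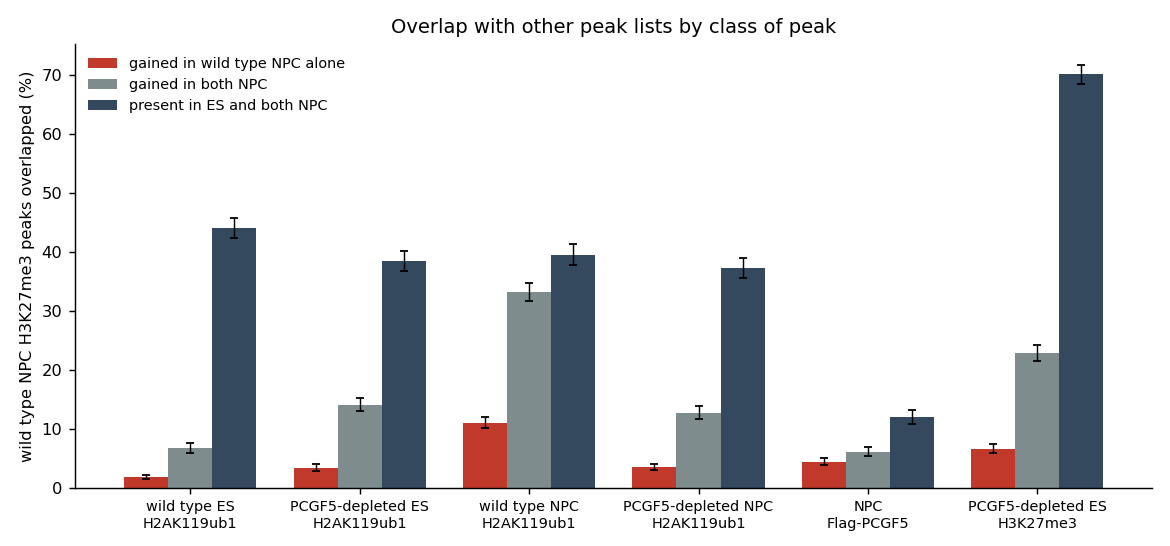
Share of wild type NPC H3K27me3 peaks overlapped by each of 6 lists (percent, bars with 95% Wilson intervals), for gained peaks (red), peaks gained in both NPC (grey) and peaks kept from ES in both NPC (dark). Gained peaks have the lowest bar in each of the 6 lists, from 1.76% for wild type ES H2AK119ub1 to 11.1% for wild type NPC H2AK119ub1.

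Before differentiation, H3K27me3 of depleted ES overlapped 274 gained peaks, or 6.60% (5.88 to 7.39), beside 30.6% of the whole list. The whole list holds peaks that overlap wild type ES H3K27me3, which the rule took out of the gained peaks. Peaks gained in both NPC, which the rule also sets apart from ES peaks, had 22.9% (21.5 to 24.3). The share of gained peaks was 11.02% (9.60 to 12.6) within 1 kb of wild type ES or depleted NPC H3K27me3 and 3.46% (2.69 to 4.43) beyond 10 kb. At the 639 promoters with gained peaks alone, depleted ES had an H3K27me3 peak at 65, among them Phf19, Lefty1, Cbr3, Krt18 and Smc1b. This was 10.2% (8.06 to 12.8), beside 13.0% of all genes. Genes marked in both NPC and not in ES had 35.8% (32.4 to 39.4). In ES, H2AK119ub1 overlapped 73 gained peaks in wild type, or 1.76% (1.40 to 2.20), beside 15.5% of the whole list, and 142 in depleted cells, or 3.42% (2.91 to 4.02), beside 16.5%. Peaks gained in both NPC had 6.66% (5.88 to 7.53) in wild type and 14.1% (12.9 to 15.2) in depleted ES.

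Chromosome X held 143 gained peaks of 221 H3K27me3 peaks of wild type NPC, or 64.7% (58.2 to 70.7), beside 36.5% of the whole list, whereas the share on chromosomes 1 to 19 ranged from 30.2% to 42.9%. The other H3K27me3 lists had 64 to 152 peaks on this chromosome. Of the 143 gained peaks 74 lay at promoters, among them C77370 and the neural factor gene Pou3f4, and 10 were overlapped by H2AK119ub1 and 3 by Flag-PCGF5 of NPC. The 3 gained peaks farthest from any ES H3K27me3 peak, at 5384217 to 5892139 bp, were intergenic and on chromosome X, with Xlr, Etd and Slxl1 as the nearest protein-coding genes.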

How the data were processed

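ChIP-seq of H3K27me3, H2AK119ub1 and Flag-PCGF5 was analysed as called peaks from 10 of the 16 libraries. The 6 input libraries had no list of their own and were not used here. According to the methods, the authors used Trimmomatic for trimming, Bowtie2 for alignment to mm9, Picard to take out duplicates and MACS2 2.1.0 to call peaks, 1 library at a time. In the deposited lists each peak has a score, which is its −log10 p (histone marks) or −log10 q (Flag-PCGF5) scaled by the caller, a fold enrichment over the background of the same library, and −log10 p and −log10 q values. The lists carry no read totals, so depth and its effect on the length of each list are unknown, and a missing peak does not show that a mark was absent. The histone lists reach down to a −log10 p near 4 and in part hold peaks with q above 0.05, whereas the Flag-PCGF5 lists, with 9 columns of the broad kind, were made with other settings. Genome positions are 1-based in mm9 (NCBIM37).

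Overlap was any shared bp, computed with Python 3.11.15, numpy 2.4.6 and pandas 2.3.3, tested on simulated peaks and checked against bedtools 2.31.1 with 0 differing counts. Promoter peaks were those centred no more than 2500 bp from the start site of a protein-coding gene in the NCBIM37 annotation, and a gene was marked when any bp of a peak lay within 2500 bp of a start site. Base composition was taken over 500 bp around the centre. No test was run, since each group had 1 library, and 95% Wilson intervals from scipy 1.17.1 cover counting error only. The peaks, gene lists and comparisons were chosen with earlier results of these data known. Of 395 genes in the lists, 394 were found in the annotation, 5 of them through an older symbol. Named genes were those of the 12 gained promoter peaks of highest fold and listed genes with a gained peak. Also named were the 12 genes with the most gained bp and no wild type ES or depleted NPC H3K27me3 at the promoter. The rest were the 8 and 6 gained peaks of highest Flag-PCGF5 and H2AK119ub1 score, and the 3 widest and 3 farthest from ES peaks. The microRNA genes were added after their values were seen, as was the limit of 150 different 4-base words of 256 possible. Alternatives changed the overlap rule, the length of the lists, the windows and the sequence kept. Some listed items and sequences are not reported here.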

Additional observations from a re-analysis of the deposited data

Results flagged for a closer look

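At the gained peaks, the share overlapped by H2AK119ub1 was higher in depleted than in wild type ES by 1.66 percentage points and changed by -7.58 percentage points from wild type to depleted NPC, so that the difference between genotypes had opposite signs in the 2 cell types. With 1 library per group this difference was not tested. The whole wild type NPC H3K27me3 list had the same signs, with 1.02 points in ES and -9.94 points in NPC, as had peaks gained in both NPC, with 7.39 and -20.5 points, whereas kept peaks had -5.51 and -2.21 points. With lists of equal length within each cell type, the shares were 1.37% in wild type and 3.42% in depleted ES, and 7.06% in wild type and 3.47% in depleted NPC. Without sequence of fewer than 150 different 4-base words wild type and depleted ES had 1.90% and 2.43%, whereas for NPC the values were 9.83% and 1.70%.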

How the results depend on the processing

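The number of gained peaks was 4153, and moved to 2511 and 1892 when no ES or depleted NPC peak was allowed within 1000 or 5000 bp, to 1159 in the higher-scoring 50% of the list and to 2209 after peaks within 1000 bp were merged. It rose to 5784 when ES and depleted NPC peaks counted only if they covered at least 50% of the peak. With 3 lists of equal length it was 4787. The share with H2AK119ub1 of wild type NPC (11.1%) moved to 13.8% in windows of 500 bp either side of the centre, 16.4% in the higher-scoring 50%, 12.4% with 3 lists of equal length, and 5.23% with the higher-scoring 50% of the H2AK119ub1 list. The share with Flag-PCGF5 (4.41%) moved to 6.00% in the windows, 5.44% in the higher-scoring 50%, 9.70% and 18.8% within 1000 and 5000 bp of a peak, and 2.62% with the higher-scoring 50% of the Flag-PCGF5 list. The share with depleted ES H3K27me3 (6.60%) moved to 11.3% in the windows, 8.11% in the higher-scoring 50% and also 8.11% with lists of equal length, and 3.70% with no other peak within 1000 bp. The promoter share (48.1%) moved to 50.9%, 50.2% and 42.7% under the windows, the higher-scoring 50% and the gap of 1000 bp, and to 29.5% with a promoter window of 1000 bp. The median distance to ES H3K27me3 (26480 bp) moved to 68973 bp with the higher-scoring 50% of the ES list and to 62791 bp without gained peaks within 1000 bp of a depleted NPC peak. Genes with gained peaks alone went from 639 to 262 in the higher-scoring 50%, which by construction are part of the 639. Alternatives added after seeing the data moved the H2AK119ub1 share to 7.06% with lists of equal H2AK119ub1 length, to 9.20% and 20.2% in the narrowest and widest peaks, and the Flag-PCGF5 share to 3.75% and 8.20%. Leaving out sequence of fewer than 150 different 4-base words, also added later, gave 9.83% with H2AK119ub1, 7.48% with depleted ES H3K27me3, 54.2% at promoters and a median distance of 16456.5 bp. The cause of these shifts was not tested. No paired analysis was possible because each group had 1 library and no result came from a test, and no replicate could be left out.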
